A study of Homo sapiens with 22 samples.

Results

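Exonic bins shorter than 1000 bp that lay more than 20000 bp from the nearest listed N6-methyladenosine (m6A) site of their own gene numbered 297 of the 2635 bins in the table, 11.3%, and came from 118 of its 636 gene models. Exonic bins are the pieces into which the annotated exons of a gene are divided at every exon edge. Members were chosen by position alone: the model carried 1 gene name and not several joined names, the bin was under 1000 bp, and its distance to the closest position in the list of m6A sites was over 20000 bp. No change in exon usage entered that choice. The other bins were 991 shorter bins of single-gene models within 20000 bp of a site, 318 bins of 1000 bp or more in single-gene models, and 1029 bins of joined models.

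All libraries came from HEK293T, an established line of transformed human embryonic kidney cells. RNA-seq covered 12 libraries in 6 groups of 2: HNRNPG knockdowns KD1 and KD2 with their wild-type control, and knockdowns of METTL3 and METTL14 with a control of their own, also labelled wild type. The labels do not say what knocked the genes down, how KD1 differed from KD2, or whether the libraries of a group were separate cultures. Another 10 libraries held RNA crosslinked to HNRNPG and were not analysed here.

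N6-methyladenosine is the most abundant internal modification of mRNA. It is written in the nucleus by a complex in which METTL3 is the catalytic subunit and METTL14 its RNA-binding partner, and it is found mainly in long internal exons and near stop codons. HNRNPG, encoded by RBMX, binds RNA in the nucleus, affects the choice of splice sites and can recognise methylated transcripts.

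Each value is the authors' log2 ratio of exon usage, that is, of the bin relative to the rest of its gene, given below as knockdown over control. A value of 0.5 or more in size is called higher or lower. The table gave 1 value per bin and comparison, so no bin has an error, a p-value or a replicate check, and the depth behind each bin is unknown. Levels of RBMX, METTL3, METTL14 and of HEK293T markers were not analysed here. KD1 and KD2 shared their control libraries, and so did METTL3 and METTL14 knockdown. Bins are not replicates of a condition, so counts and medians over them are descriptions without a test.

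The 297 bins lay on 22 chromosomes and were at least 1 bp long, and 28 of them under 20 bp. Their median length was 147 bp, against 143 bp for shorter bins nearer to a site and 157 bp for all bins. Their median distance to the nearest listed site was 32656 bp, with quartiles of 24062 and 50949 bp and a maximum of 441341 bp. Models with a single listed site held 180 of the bins (60.6%), against 46.6% of the nearer shorter bins and 46.4% of all bins. A further listed site can only shorten the distance to the nearest one, so the rule itself favours models with few sites. Of the members, 186 (62.6%) lay downstream of the nearest site in the direction of transcription and 111 upstream, whereas 52.8% of the nearer shorter bins lay downstream. Bin length was a multiple of 3, so that adding or leaving out the bin would keep a reading frame, in 112 members (37.7%), against 32.1% of the nearer shorter bins and 34.7% of all bins. Whether a bin is coding or untranslated was not analysed here.

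Members were uneven over genes. A single member came from each of 58 models, and 16 models with 5 or more held 131 of the 297 bins (44.1%). The most, 15, belonged to NFE2L2, the transcription factor of the oxidative stress response. Directly adjoining bins made up 53 runs with 135 bins, and the longest run had 8.

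In HNRNPG knockdown KD1, 57 of the 297 bins (19.2%) reached 0.5 in either direction, where 15.0% of all bins in the table did. They were 25 higher and 32 lower, or 8.42% and 10.8% of members, beside 6.00% and 9.03% of all bins. In KD2, 75 bins reached 0.5 (25.3%, beside 21.7% of all bins), 32 of them higher and 43 lower. That was 10.8% higher, beside 7.78%, and 14.5% lower, beside 13.9%. METTL3 knockdown had 72 such bins (24.2%, beside 22.4% of all), 28 higher (9.43%, beside 7.63%) and 44 lower (14.8%, the same as the 14.8% of all bins). METTL14 knockdown had 47 (15.8%, beside 16.0%), 19 higher (6.40%, beside 5.46%) and 28 lower (9.43%, beside 10.6%). At least 1 comparison reached 0.5 in 120 members (40.4%), against 41.3% of all bins. In at least 1 comparison, members thus reached this size about as often as the table as a whole. Nearer shorter bins reached it in 17.2% for KD1, 25.8% for KD2, 27.6% for METTL3 and 19.6% for METTL14 knockdown. Beside these, the share of members was higher in KD1, slightly lower in KD2 and lower in METTL3 and METTL14 knockdown.

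The middle of the distribution over bins lay slightly higher than elsewhere in 3 of the 4 comparisons. The median over members was 0.06 in KD1, against -0.04 for nearer shorter bins and -0.04 for all bins. In KD2 it was 0.05, against -0.05 and -0.06, and in METTL14 knockdown 0.03, against -0.04 and -0.04. In METTL3 knockdown the 3 medians were alike, at -0.04, -0.04 and -0.04. Values above 0 made up 55.6% of members in KD1 and 52.9% in KD2, against 45.6% and 45.9% of the nearer shorter bins. The sign of these medians did not hold when each gene counted once. With the median of its member bins per model, the median over 118 models was -0.0035 in KD1, -0.03 in KD2, -0.05 for METTL3 and -0.01 for METTL14 knockdown, and 58 models lay above 0 and 60 below in KD1.

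**Figure D1:**
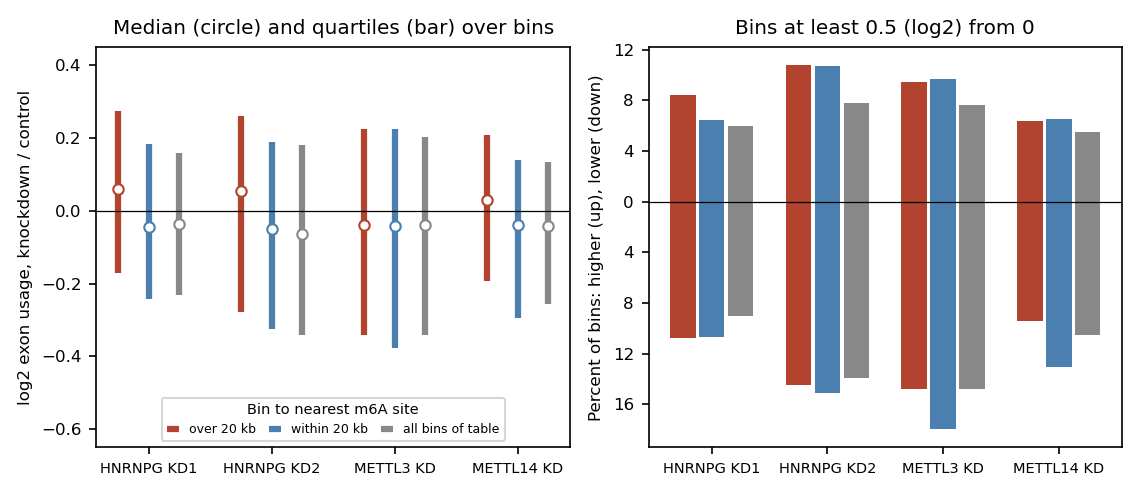
Exon usage change for bins over 20 kb from a listed m6A site (297), within 20 kb (991) and for all bins (2635), in the 4 comparisons. Left, the median (circle) and quartiles (bar) of the log2 ratio of knockdown over control, and right, the percent of bins at least 0.5 higher (up) or lower (down). Medians of the far bins lie above 0 in KD1, KD2 and METTL14 knockdown, while the percentages resemble those of the other sets.

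Among all shorter bins of single-gene models, the median in KD1 was -0.02 for 36 bins that held a site and -0.003 for 209 bins within 1000 bp. It was -0.05 for 383 bins at 1000 to 5000 bp, -0.04 for 163 bins at 5000 to 10000 bp and -0.11 for 200 bins at 10000 to 20000 bp. Farther out it was 0.05 for 130 bins at 20000 to 30000 bp, 0.06 for 89 bins at 30000 to 50000 bp and 0.08 for 78 bins beyond 50000 bp. In METTL3 knockdown the share of bins that reached 0.5 was 27.8% with a site inside, 28.7% within 1000 bp, 26.5% at 10000 to 20000 bp, 23.8% at 20000 to 30000 bp, 25.8% at 30000 to 50000 bp and 23.1% beyond. In METTL14 knockdown the share was 15.3% within 1000 bp and 16.7% at 1000 to 5000 bp, beside 16.0% of all bins. It was 25.8% at 5000 to 10000 bp and 23.5% at 10000 to 20000 bp. Farther out it was 13.8% at 20000 to 30000 bp, 8.99% at 30000 to 50000 bp and 26.9% beyond 50000 bp. The share beyond 50000 bp was thus near that at 5000 to 10000 bp. Of the 21 bins behind the 26.9%, 7 belonged to CLSTN1, and without this gene the share was 19.7%. Within the members, distance and the size of the change had Spearman correlations across 297 bins of -0.03 for KD1, 0.01 for KD2, 0.06 for METTL3 and 0.12 for METTL14 knockdown. Distance and the signed change had correlations of 0.04, -0.07, 0.17 and 0.01 in the same order. These points share libraries, and bins of 1 gene share reads.

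**Figure D2:**
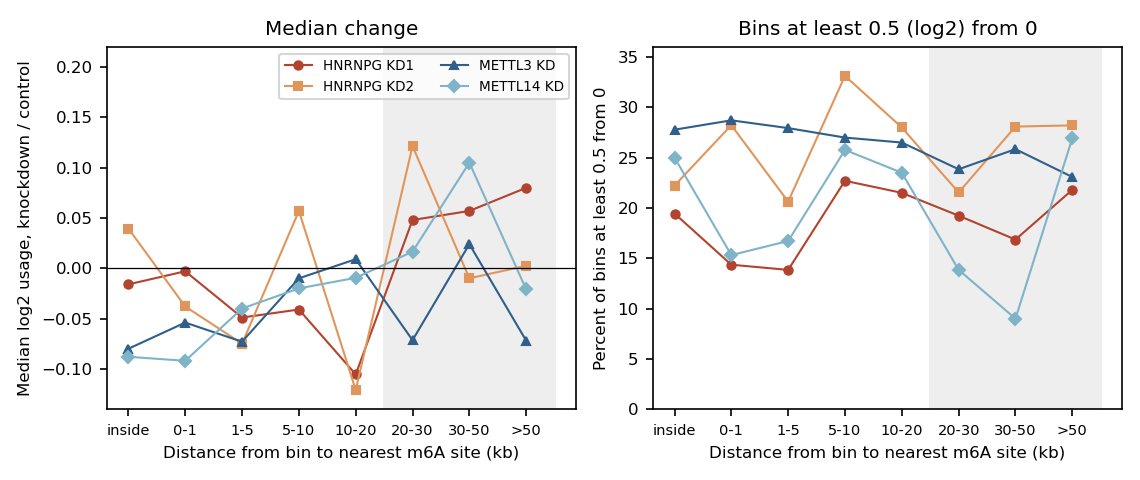
Shorter bins of single-gene models by distance to the nearest listed m6A site in kb, from bins that hold a site to bins beyond 50 kb, with 36, 209, 383, 163, 200, 130, 89 and 78 bins; the grey area marks bins over 20 kb away. Left, the median log2 ratio of knockdown over control, and right, the percent of bins at least 0.5 from 0. No steady trend with distance is seen in the percentages.

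Of the 57 members of 500 bp or more, from 47 models, 1 was higher and 9 lower by 0.5 in KD1, 3 and 11 in KD2, 2 and 11 in METTL3 and 3 and 8 in METTL14 knockdown. The lower bins were 15.8%, 19.3%, 19.3% and 14.0% of these members, beside 9.03%, 13.9%, 14.8% and 10.6% of all bins, and the higher ones 1.75%, 5.26%, 3.51% and 5.26%, beside 6.00%, 7.78%, 7.63% and 5.46%. Medians of these longer members were -0.08, -0.14, -0.06 and -0.09 in that order. The 88 members of 20 to 99 bp, from 48 models, had 10 higher and 9 lower in KD1, 14 and 11 in KD2, 11 and 14 in METTL3, and 4 and 10 in METTL14 knockdown, with medians of 0.09, 0.16, -0.04 and 0.04. Bins of 1000 bp or more in single-gene models, at any distance, had medians of -0.13, -0.17, -0.04 and -0.05. Members whose length was a multiple of 3 had 8 higher and 11 lower in KD1, 9 and 15 in KD2, 14 and 13 in METTL3 and 6 and 8 in METTL14 knockdown. The other lengths had 17 and 21, 23 and 28, 14 and 31, and 13 and 20, so the balance between the directions differed most in METTL3 knockdown and was similar in KD1 and METTL14 knockdown.

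Direction also differed with the side of the site in KD1, KD2 and METTL14 knockdown, without a test. Downstream of the nearest site 13 bins were higher and 26 lower in KD1, and 13 and 30 in KD2. Upstream, 12 were higher and 6 lower in KD1, and 19 and 13 in KD2. In METTL3 knockdown these counts were 16 and 26 downstream and 12 and 18 upstream, and in METTL14 knockdown 8 and 18 downstream and 11 and 10 upstream. DDB2 supplied part of the downstream counts: without its 10 bins there were 13 higher and 18 lower in KD1, 13 and 23 in KD2, 16 and 17 in METTL3 and 8 and 17 in METTL14 knockdown. Upstream, without the 4 bins of MPRIP, there were 9 higher and 6 lower in KD1, 15 and 13 in KD2, 11 and 18 in METTL3 and 9 and 10 in METTL14 knockdown. Without these genes, the share lower among called bins was 58.1%, 63.9%, 51.5% and 68.0% downstream and 40.0%, 46.4%, 62.1% and 52.6% upstream. Over all bins it was 60.1%, 64.2%, 65.9% and 65.9%. Downstream members without DDB2 were thus near all bins in KD1, KD2 and METTL14 knockdown. Upstream members without MPRIP lay below all bins in those 3 comparisons. By gene, a downstream bin was lower in 15 of 80 models and higher in 6 in KD1, and an upstream bin was lower in 6 of 46 and higher in 7. In the same order these model counts were 22, 7, 7 and 10 in KD2. They were 15, 9, 11 and 9 in METTL3 and 16, 5, 4 and 8 in METTL14 knockdown. Upstream bins were also shorter, with a median of 120 bp, against 169 bp downstream, and the part of length in this difference was not tested.

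Successive members of 1 gene had similar values, which does not extend to all bins of a gene. Directly adjoining members differed by a median of 0.06 for KD1, 0.05 for KD2, 0.04 for METTL3 and 0.03 for METTL14 knockdown over 82 pairs. Successive members of a gene that did not adjoin differed by 0.09, 0.09, 0.10 and 0.09 over 97 pairs. Members of different genes differed by 0.35, 0.43, 0.45 and 0.32. A read that spans a boundary can be counted in both bins, so adjoining bins are not independent measurements. In the extreme, exon bins 56 and 57 of DDB2, each 1 bp long and side by side, had the same values of -1.36, -0.96 and -1.07 in KD1, KD2 and METTL3 knockdown in the authors' deposited table.

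NFE2L2 had its 15 bins between 178096322 and 178098951 on chromosome 2 (hg19), 21230 to 23740 bp downstream of the 1 listed site. In the authors' deposited table they ran from 0.29 to 0.39 in KD1 with a median of 0.34, and from 0.22 to 0.37 in KD2 with a median of 0.28. In METTL3 knockdown the authors' deposited table gave them -0.40 to -0.25 with a median of -0.35, and in METTL14 knockdown -0.02 to 0.18 with a median of 0.13. All 15 lay above 0 in both HNRNPG knockdowns and below 0 in METTL3 knockdown, and none reached 0.5.

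ZNF655, a zinc finger protein, was the other extreme of a shared direction. Its 7 members on chromosome 7, from 99197828 to 99208439, had medians of 1.42 for KD1, 0.80 for KD2, 1.07 for METTL3 and 0.48 for METTL14 knockdown in the authors' deposited table. Every one was above 0 in each comparison, from a lowest value of 0.32 in KD2 to a highest of 1.50 in KD1. The 3 shorter ZNF655 bins nearer to a site had medians of -0.02, 0.32, -0.22 and -0.15 in the same order in the authors' deposited table.

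DDB2 recognises ultraviolet damage in DNA for nucleotide excision repair. Its 10 members on chromosome 11, from 47256964 to 47261429, had medians of -0.83 for KD1, -0.68 for KD2, -0.99 for METTL3 and -0.31 for METTL14 knockdown in the authors' deposited table. Of these, 9 were below 0 and 1 above in KD1, KD2 and METTL3 knockdown. The exception, exon bin 49 of 50 bp, had 0.12, 0.15, 0.31 and 0.07 in the authors' deposited table. It directly follows exon bin 48, which had -0.97, -1.57, -1.57 and 0.00 there. The 7 shorter DDB2 bins within 20000 bp of a site had medians on the other side, 0.24, 0.27, 0.39 and 0.18, per the authors' deposited table, although exon bin 38 among them was below 0 throughout.

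Other genes differed in direction between the METTL knockdowns. SEC31A, a subunit of the COPII coat of vesicles leaving the endoplasmic reticulum, had 12 members, with medians of 0.15 for KD1, -0.39 for KD2, -0.33 for METTL3 and 0.31 for METTL14 knockdown in the authors' deposited table. All 12 were below 0 in METTL3 and above 0 in METTL14 knockdown. CLSTN1, a calsyntenin of neuronal membranes, had 7 upstream members with medians of -0.27, -0.45, 0.31 and -0.71 in the authors' deposited table. Its 1 downstream member, exon bin 16 of 57 bp, had 0.06, -0.61, -1.15 and 0.21 there. That was on the other side from the upstream bins in KD1, METTL3 and METTL14 knockdown.

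CHUK, the IkB kinase alpha subunit, also had members on both sides of its site. In the authors' deposited table its 8 downstream members had medians of 0.12 for KD1, 0.23 for KD2, 0.39 for METTL3 and 0.14 for METTL14 knockdown. Its 2 upstream members stood at -0.10, -0.13, -0.29 and -0.06, the same order of knockdowns, per the authors' deposited table. All downstream members were above 0 and both upstream ones below 0 in every comparison. HDLBP, the KH-domain protein vigilin, had 3 adjoining bins (105 to 107) at 0.62, 0.82 and 0.86 in KD2 in the authors' deposited table. In METTL3 knockdown the same bins had -1.43, -1.38 and -1.44 in the authors' deposited table.

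Most remaining genes with 5 or more members had small values. SNAP47, a SNARE protein, had 8 members all below 0 in each comparison, with medians of -0.13, -0.19, -0.08 and -0.21 in the authors' deposited table. RUFY2, an endosomal protein, had 7 members all above 0, with medians of 0.21, 0.29, 0.43 and 0.14 in the authors' deposited table, and 1 of them reached 0.5, at 0.55 in METTL3 knockdown. For CCBL2 (KYAT3, a kynurenine aminotransferase; 12 members), EIF4B (an initiation factor; 7), TERF2 (a telomere-binding protein; 7), PTP4A2 (a phosphatase; 6) and FANCA (a Fanconi anaemia protein; 5) no bin reached 0.5 in any comparison. OSBPL1A, a sterol-binding protein with 5, reached it in 1 bin, at 0.55 in METTL3 knockdown in the authors' deposited table. C2CD3, a centriole protein, had 7 members with medians of 0.34, 0.15, -0.26 and 0.07 in the authors' deposited table. Its exon bin 80 of 37 bp stood apart at -2.01 in KD1 against 0.53 in KD2 there, in 2 knockdowns of the same gene.

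**Figure D3:**
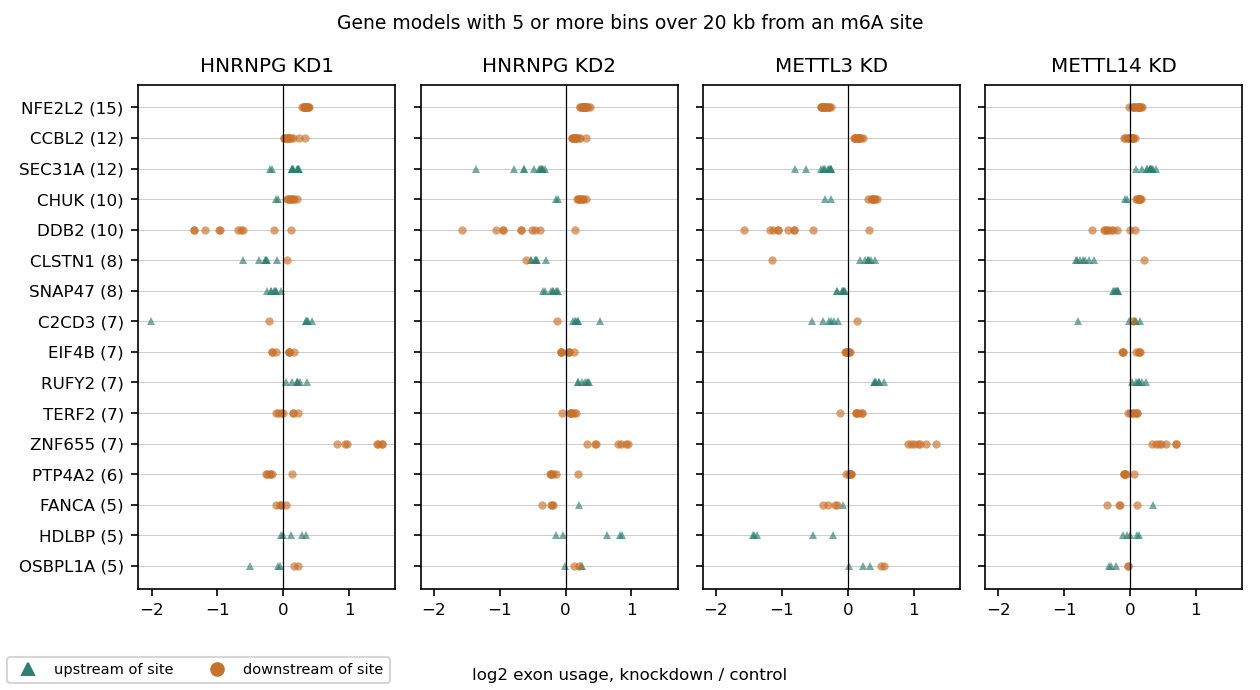
All member bins of the 16 gene models with 5 or more of them, 1 point per bin, with the log2 ratio of knockdown over control on the horizontal axis in each comparison; numbers of bins follow the names. Triangles are bins upstream and circles bins downstream of the nearest listed m6A site. Bins of NFE2L2 cluster tightly in each comparison, those of ZNF655 lie above 0 throughout, and the upstream and downstream bins of CHUK lie on different sides of 0.

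For 44 models, shorter bins lay both beyond and within 20000 bp of a site. The far bins had the higher median in 23 of them for KD1, 25 for KD2, 27 for METTL3 and 23 for METTL14 knockdown. The median of far minus near was 0.03, 0.09, 0.06 and 0.03, while the median size of that difference was 0.30, 0.46, 0.32 and 0.27. The 2 sets of bins lay on opposite sides of 0 in 27, 25, 23 and 23 models. By its definition, a higher value in some bins of a model goes with lower values in its others. The widest difference in METTL14 knockdown was that of MAEA, a subunit of the CTLH ubiquitin ligase. In the authors' deposited table it had 1.26 for its 2 far bins and -0.28 for its 1 near bin. In METTL3 knockdown the widest was that of TCOF1, the nucleolar protein treacle. TCOF1 had 0.16 for its 1 far and -1.35 for its 1 near bin in the authors' deposited table. The widest of any comparison was that of HNRNPR, an hnRNP protein, which had 0.10 for its far and -1.75 for its 1 near bin in KD1 in the authors' deposited table.

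The extreme bins of each comparison are given with 1 bin per gene and side. In KD1 the highest after ZNF655 were MPRIP exon bin 5 at 0.87, C12orf35 (RESF1, a silencer of retroelements) exon bin 8 at 0.81, MSI2 (an RNA-binding Musashi protein) exon bin 19 at 0.71, NUDC (a dynein cofactor) exon bin 2 at 0.70 and ATP1B3 (a subunit of the sodium pump) exon bin 3 at 0.69 in the authors' deposited table. MPRIP binds myosin phosphatase and RhoA, and its bin was 21 bp long. The lowest after C2CD3 and DDB2 were PKP4 (a plakophilin of cell junctions) exon bin 75 at -1.26, NXN (the thioredoxin-like nucleoredoxin) exon bin 9 at -1.02, TXNL4A (a protein of the U5 snRNP) exon bin 34 at -0.94 and DUXAP9 exon bin 2 at -0.86 in the authors' deposited table. DUXAP9 is a pseudogene with near-identical copies, so its value is uncertain.

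In KD2 the highest were C12orf35 exon bin 8 at 1.28, ANKRD11 (a chromatin regulator) exon bin 65 at 1.24, RALGAPA1 exon bin 14 at 1.11, MAEA exon bin 12 at 1.00, ZNF678 (a zinc finger protein) exon bin 24 at 0.98 and ZNF655 exon bin 66, of 3 bp, at 0.95, per the authors' deposited table. The lowest were RALGAPA1 exon bin 60 at -7.37 and ODF2L exon bin 11 at -7.16, far beyond DDB2 exon bin 48 at -1.57, SEC31A exon bin 124 at -1.36, PPPDE1 (DESI2) exon bin 10 at -1.25 and NXN exon bin 9 at -1.17 in the authors' deposited table. The ODF2L bin (204 bp, chromosome 1, 86817688 to 86817891) had -0.34 in KD1, -0.80 in METTL3 and -0.17 in METTL14 knockdown in the authors' deposited table, so only its KD2 value was beyond 1 in size.

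METTL3 knockdown had its highest values in RALGAPA1 exon bin 14, ZNF655 exon bin 66, ANKRD11 exon bin 65 (1.26), NUDC exon bin 2 (1.18) and NAA50 (an N-terminal acetyltransferase) exon bin 16 (1.04), per the authors' deposited table. The lowest there were RALGAPA1 exon bin 60 and NXN exon bin 9 at -6.76, then DDB2 exon bin 48, HDLBP exon bin 107, DNM1 (dynamin, which pinches off vesicles) exon bin 46 at -1.29 and PPPDE1 exon bin 10 at -1.23 in the authors' deposited table.

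METTL14 knockdown had its highest values in MAEA exon bin 13 (1.45), RALGAPA1 exon bin 14 (1.34), YWHAE (the 14-3-3 epsilon adaptor) exon bin 27 (1.20), CNOT4 (a ubiquitin ligase bound to the CCR4-NOT deadenylase) exon bin 11 (0.84), ZNF655 exon bin 78 and ATP1B3 exon bin 3 (both 0.70) in the authors' deposited table. Its lowest were RALGAPA1 exon bin 60 at -1.79, SIM2 (a transcription factor) exon bin 20 at -1.22, HP1BP3 (a heterochromatin protein) exon bin 15 at -1.13, DNM1 exon bin 46 at -1.01, UBE2E3 (a ubiquitin-conjugating enzyme) exon bin 36 at -0.92 and NXN exon bin 9 at -0.91 in the authors' deposited table. The MAEA bin had 0.68 in KD1, 0.88 in KD2 and -0.15 in METTL3 knockdown in the authors' deposited table.

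Bins with the largest smallest value on 1 side of 0 in all 4 comparisons included several of these. ANKRD11 exon bin 65 (149 bp, chromosome 16, 89427937 to 89428085) stood in the authors' deposited table at 0.65 for KD1, 1.24 for KD2, 1.26 for METTL3 and 0.57 for METTL14 knockdown. Exon bin 52 of ANKRD11 stood at 0.55, 0.96, 0.53 and 0.60, the same order of knockdowns, per the authors' deposited table, while its exon bin 68 of 15 bp had 0.08, 0.13, -0.25 and -0.03. NUDC exon bin 2 (152 bp, chromosome 1, 27227061 to 27227212) stood at 0.70, 0.75, 1.18 and 0.53, per the authors' deposited table.

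Among the lower bins, DNM1 exon bin 46 (760 bp, chromosome 9, 131014620 to 131015379) stood at -0.77, -0.90, -1.29 and -1.01, per the authors' deposited table. The second DNM1 member, exon bin 54, had -0.14, -0.19, -0.13 and -0.23 there. SIM2 exon bin 20 (658 bp, chromosome 21, 38117438 to 38118095) had -0.65, -0.96, -0.96 and -1.22, and SIM2 exon bin 22 had -0.83, -0.95, -0.80 and -0.54 in the authors' deposited table. NXN exon bin 9 (237 bp, chromosome 17, 707224 to 707460) lay near -1 in 3 comparisons, at -1.02, -1.17 and -0.91 in KD1, KD2 and METTL14 knockdown, against -6.76 in METTL3 knockdown in the authors' deposited table. RALGAPA1, which encodes a GTPase-activating subunit acting on Ral proteins, held both the higher exon bin 14 (213639 bp from the site) and the lower exon bin 60 (20295 bp), and its other member, exon bin 48, had 0.36, -0.03, -0.37 and 0.41 in the authors' deposited table.

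**Figure D4:**
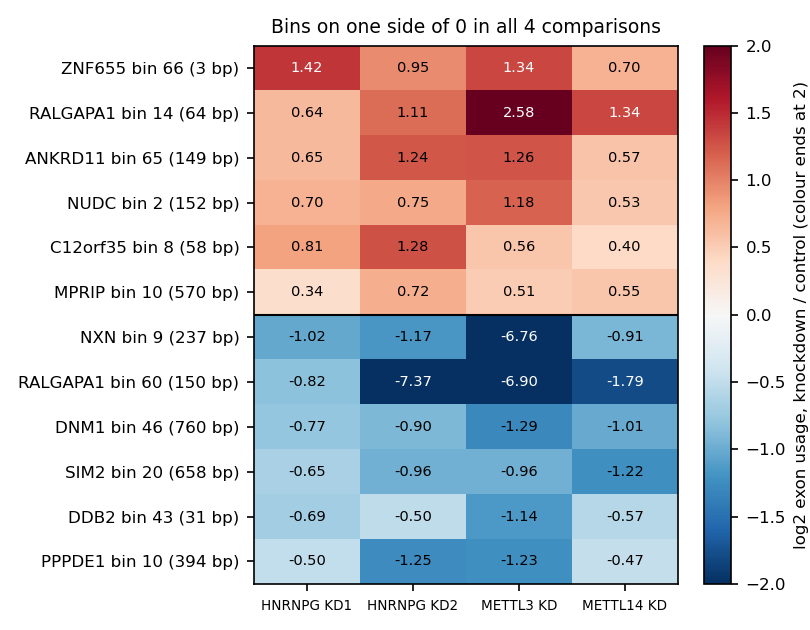
The log2 ratio of knockdown over control in each of the 4 comparisons for the 6 higher and 6 lower bins with the largest smallest value on 1 side of 0, with 1 bin per gene and side. Colours end at 2 in size while the printed numbers are the full values, such as -7.37 and -6.90 for RALGAPA1 exon bin 60.

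HNRNPG and METTL knockdowns had separate controls, so their values for the same bins could be set side by side. Across the 297 members the correlation of KD1 was r = 0.40 (Spearman rho = 0.25) with METTL3 and r = 0.50 (rho = 0.51) with METTL14 knockdown. For KD2 it was r = 0.56 (rho = 0.37) and r = 0.46 (rho = 0.45), and without the 3 bins beyond 5 in size the KD2 and METTL3 value was r = 0.46 over 294 bins (rho = 0.35). With 1 median per gene over 118 models, rho was 0.29, 0.41, 0.38 and 0.43 in that order. Over the 991 nearer shorter bins rho was 0.40 for KD1 with METTL3, 0.25 for KD1 with METTL14, 0.49 for KD2 with METTL3 and 0.50 for KD2 with METTL14. Bins of 1 gene and libraries of 1 comparison tie these points together, and the correlations carry no test.

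KD1 and METTL3 knockdown both reached 0.5 in 35 members, 61.4% of those of KD1 and 48.6% of those of METTL3. Of these, 13 were higher in both, 16 lower in both and 6 opposite, and those in the same direction were 9.76% of members, beside 6.22% of all bins. KD1 and METTL14 shared 26 (45.6% and 55.3%), 11 higher, 11 lower and 4 opposite, with 7.41% of members in the same direction, beside 4.71% of all bins. KD2 and METTL3 shared 47 (62.7% and 65.3%), 14 higher, 26 lower and 7 opposite, with 13.5% in the same direction, beside 9.87%. KD2 and METTL14 shared 30 (40.0% and 63.8%), 12 higher, 13 lower and 5 opposite, with 8.42% in the same direction, beside 7.17%. In the same order of pairs, nearer shorter bins had 7.67%, 6.36%, 12.6% and 9.18% in the same direction, the last above that of members. With 1 median of the members per gene, the shares were 6.78%, 7.63%, 14.4% and 10.2%.

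**Figure D5:**
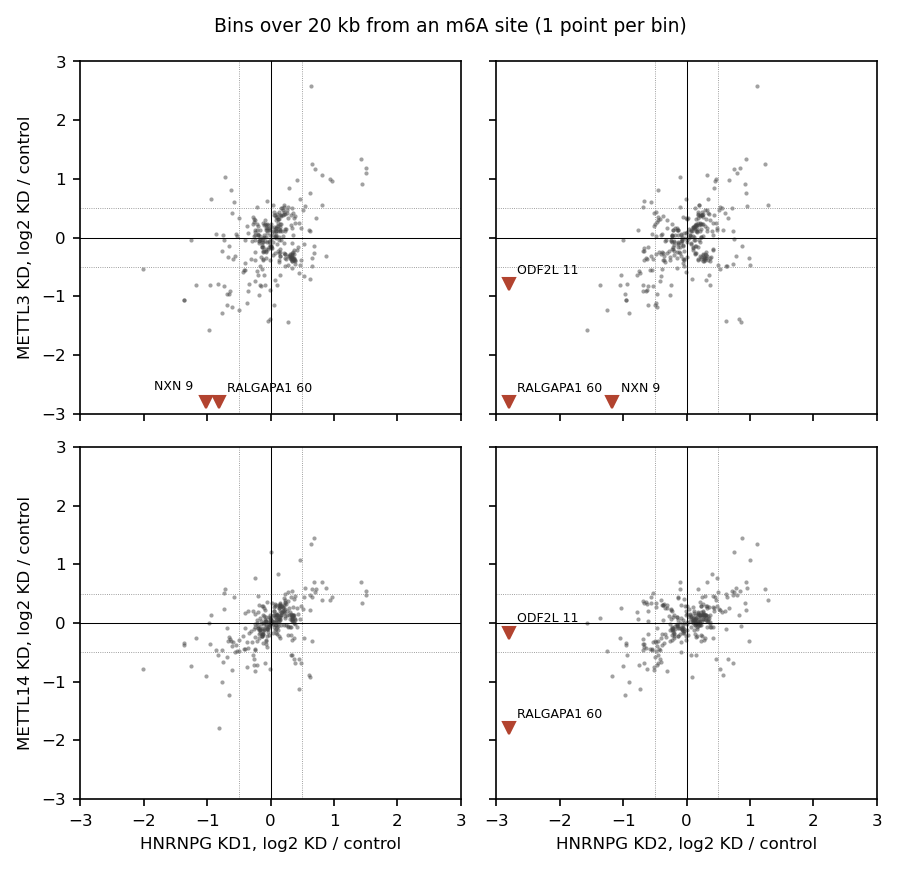
Each of the 297 bins by its log2 ratio of knockdown over control in an HNRNPG knockdown (horizontal) and a METTL knockdown (vertical), which have separate controls. Dotted lines mark 0.5 in size, and triangles mark bins whose value lies beyond the axis, namely RALGAPA1 exon bin 60, NXN exon bin 9 and ODF2L exon bin 11. Spearman rho ranged from 0.25 for KD1 with METTL3 to 0.51 for KD1 with METTL14 knockdown. For KD1 with METTL3 knockdown, 57.6% of bins lay on the same side of 0 in both.

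Functional groups were small among these bins, and the counts below hold for the lists used, which leave out some members with related roles, among them APTX (DNA repair), ANKRD11 (chromatin), TXNRD2, CABC1, ACAD9 and SLC25A26 (mitochondria), SNAP47 and RUFY2 (trafficking) and UCHL5 (ubiquitin). Over all bins, 6.00% were higher and 9.03% lower in KD1, and 7.78% and 13.9% in KD2. The shares were 7.63% and 14.8% in METTL3 and 5.46% and 10.6% in METTL14 knockdown, and they stand beside the counts of every list below. In lists this small, having no higher bin differs little from these shares. The DNA repair list had 18 members in DDB2, FANCA and FANCI, with no bin 0.5 higher in any comparison, 9 lower for KD1, 7 for KD2, 11 for METTL3 and 1 for METTL14 knockdown. DDB2 alone gave 8, 7, 9 and 1 of these. Outside the list, and picked after its values were seen, APTX had 2 adjoining bins at 0.52 and 0.55 in KD2 and 0.52 and 0.51 in METTL3 knockdown, per the authors' deposited table. FANCI, a partner of the Fanconi anaemia pathway, gave the others, with exon bin 83 at -0.70 in KD1 and -0.96 in METTL3 knockdown in the authors' deposited table. The membrane trafficking list had 20 members in 6 genes, of which 12 were SEC31A, with no bin 0.5 higher, and 1, 7, 3 and 1 lower in KD1, KD2, METTL3 and METTL14 knockdown. Outside that list, RUFY2 had 1 bin at 0.55 in METTL3 knockdown in the authors' deposited table, and no SNAP47 bin reached 0.5.

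The ubiquitin list had 8 members in MAEA, UBE2D2, UBE2E3, UBE4B and USP36. In METTL3 knockdown 5 of them, from 3 genes (UBE2D2 and UBE2E3 with adjoining bins, and UBE4B), were lower and none higher by 0.5, beside 14.8% and 7.63% of all bins, while KD1 had 3 higher and 1 lower, KD2 2 and 1, and METTL14 knockdown 3 and 1. UBE4B, a ubiquitin chain elongation factor, stood at -0.74, -0.54, -0.83 and 0.50 for exon bin 20, per the authors' deposited table. The cytoskeleton and adhesion list had 6 members, 4 of them in MPRIP, with 3 higher and 1 lower in KD1, 4 and 1 in KD2, 1 and 0 in METTL3 and 2 and 1 in METTL14 knockdown.

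Of the 13 single-gene models of hnRNPs and related splicing regulators with any bin, 4 had a member. For the core spliceosome this was 2 of 7. Over all 636 models, joined ones included, 118 had a member. The list of hnRNPs and related splicing regulators had 5 members in EWSR1, HNRNPR, MBNL1 and RBM39, with 1 lower in KD2, 1 lower in METTL14 knockdown and no other at 0.5. Both were EWSR1 exon bin 47, of an RNA-binding FET protein, listed in the authors' deposited table at 0.48 for KD1, -0.67 for KD2, -0.38 for METTL3 and -0.69 for METTL14 knockdown. The core spliceosome list had 3 members in SF3A3 and TXNL4A, and the TXNL4A bin had -0.94, -0.01, 0.66 and 0.13 in the authors' deposited table. No SR protein and no m6A writer, eraser or reader of the lists had a member, but only 6 and 2 such single-gene models had any bin.

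The chromatin list had 6 members in KDM1A, MBD5, NCOR1 and SIN3B, with none higher and 3, 2, 0 and 1 lower by 0.5 in KD1, KD2, METTL3 and METTL14 knockdown. Members outside the list, picked after their values were seen, went both ways. ANKRD11 exon bins 52 and 65 were higher by 0.5 in every comparison. HP1BP3 exon bin 15 was lower by 0.5 in KD2, METTL3 and METTL14 knockdown. MBD5, of the methyl-CpG-binding domain family, held the members farthest from a site, exon bins 26 and 21 at 441341 and 435182 bp. In the authors' deposited table bin 21 had -0.77, -0.69, -0.23 and -0.47 and bin 26 had -0.67, -0.25, -0.32 and -0.32. SLIT2, an axon guidance ligand, came next at 251497 bp, where the authors' deposited table gives exon bin 5 as 0.01, 0.10, -0.18 and 0.00.

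The other lists had few bins at this size. The 5 members of the polyadenylation, export and decay list lay in CNOT4 and CSTF3, with 1, 1, 0 and 2 higher and 0, 2, 0 and 0 lower. The mitochondrial list had 5 members in 4 genes, none higher and 1, 1, 1 and 0 lower, with IMMP1L (a protease of the inner membrane) exon bin 17 at -0.60 in KD2 and -0.83 in METTL3 knockdown in the authors' deposited table. Outside that list, the 2 TXNRD2 bins had 0.50 and 0.62 in KD2 and 0.52 and 0.49 in METTL14 knockdown there. The CABC1 bin had -0.57 in KD1 and -0.50 in METTL14 knockdown in the authors' deposited table. The list of translation factors and ribosomal proteins held EIF4B.

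The member closest to the distance limit was exon bin 35 of MRPL37, a mitochondrial ribosomal protein, at 20010 bp, with 0.41, 0.42, -0.21 and -0.07 in the authors' deposited table. DDB2 exon bin 38 at 19968 bp just missed it, with -0.47, -0.47, -0.99 and -0.34 there, while DDB2 exon bin 40 was a member. The longest member was MBD5 exon bin 26, just under 1000 bp, and the shortest bin beyond the length limit at this distance was MBD5 exon bin 17 at 1041 bp, with 0.14, -0.28, 0.07 and -0.62 in the authors' deposited table.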

How the data were processed

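Log2 ratios of exon usage per bin, control over knockdown, were computed and deposited by the authors, per the file headers. The name of the deposited table gives DEXSeq and exons in HC-m6A-containing genes. All bins, as used above, are thus bins of such genes and not of all genes. Listed tools, per the submitters' processing notes and without roles, were Bowtie 1.0.0, TopHat 1.1.4, Trimmomatic, Cuffdiff and Cufflinks, with the build hg19. The normalization and the rule that listed a bin were not given in the sources used. Signs were turned, so that positive is higher in the knockdown. Coordinates are hg19 as deposited, both ends included. Of 118 symbols, 102 were current, 13 older and 3 unmatched. A bin was called at a log2 size of 0.5. Members, gene lists and the 6 highest and lowest bins named per comparison, with 1 per gene and side, were chosen with earlier results of these data known. Named too were genes with 5 or more members, the 3 farthest bins and 1 bin per list. One gene that these rules name, and the list that holds it, are not reported here. No test was run, since depth, error and values per library were not in the table. The functions were tested on simulated data. Alternatives covered distance, length, call size and counting unit. Python 3.11.15, numpy 2.4.6, pandas 2.3.3, scipy 1.17.1 and matplotlib 3.10.9 were used.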

Additional observations from a re-analysis of the deposited data

How the results depend on the processing

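Of 100 alternative values, 82 stayed within the 95% counting interval of the value given (order-statistic for medians, exact binomial for shares) with the same sign. These intervals treat bins as independent, which bins of 1 gene are not, so they serve only as a yardstick. Leaving out NFE2L2 could not change the share lower among called bins, because none of its bins was called. Medians changed sign with 1 value per gene (-0.0035 for KD1, -0.028 for KD2 and -0.011 in METTL14 knockdown), at a limit of 10000 bp (-0.004 in KD1 and -0.033 in KD2), at 50000 bp (-0.021 in METTL14) and, for METTL3, without NFE2L2 (0.0005). With calls at 0.3 the called shares were 38.7% for KD1, 46.5% for KD2, 51.2% for METTL3 and 34.0% for METTL14, and at 1 they were 3.37%, 4.38%, 7.74% and 2.69%. The share lower among called bins moved to 39.1% in KD1 at 0.3 and to 69.2% in KD2 at 1. The METTL14 share called was 26.9% beyond 50000 bp. With 1 value per run of adjoining bins, chosen after seeing the data, medians were nearer to 0, at 0.011 for KD1, 0.002 for KD2, -0.001 for METTL3 and 0.024 for METTL14, all with the same sign and within the interval. Causes were not tested. No paired analysis was possible because the table holds no values per library, and no replicate could be left out.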
